A study of Mus musculus with 22 samples.

Results

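The genes of glycolysis and of the tricarboxylic acid (TCA) cycle were followed in mouse back skin as the first hair follicles grew and then came to rest. The group is a list of 32 genes, made up of 1 glucose transporter and core enzymes of both pathways. The muscle forms Pfkm, Pgam2 and Eno3 were left out, but members that were kept, Hk2 and Pkm among them, are also expressed in muscle. A member was read through the probe sets that the array's annotation pairs with that gene alone. By this rule 30 of the 32 had a probe set, out of 8252 genes with a probe set of their own on the whole array, and Gpi1 (glucose-6-phosphate isomerase) and Eno1 (enolase 1) had none. The 43 probe sets included 6 array controls for Gapdh, which is read here through those controls alone. A probe set was tested where its mean log2 signal over all arrays reached 7.67, a signal of 203, and 26 members passed. Slc2a1, Aco1 and Idh3b lay below that level.

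The study used 22 arrays to compare K14-DN-Clim transgenic mice with wild-type littermates, both of the CB6F1 strain, at postnatal days 6, 14 and 23. CLIM cofactors are nuclear proteins that bridge LIM domain transcription factors. The transgene DN-CLIM interferes with them, and the keratin 14 (K14) promoter drives it in basal keratinocytes, so whole back skin holds many cells that do not make it. Each genotype had 5 arrays from P6, 3 from P14 and 3 from P23. Hair follicles were growing at P6 and P14 and resting, in the first telogen, at P23. Resting skin came only from the oldest age, so hair cycle stage and age cannot be told apart. The series' description gives 3 to 5 mice of each genotype per age, which matches the arrays, but does not tie an array to a mouse, so the p-values measure the spread between arrays of a group. In whole skin, fewer cells of a type and less RNA per cell cannot be told apart.

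Glycolysis splits glucose into pyruvate in the cytosol. Lactate dehydrogenase turns pyruvate into lactate, and the pyruvate dehydrogenase complex carries it into the TCA cycle, where mitochondria oxidise it. The hair follicle is known for using much of its glucose through glycolysis to lactate even where oxygen is at hand, and it passes through cycles of growth, regression and rest.

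One array stood apart before any comparison. DN-CLIM P6 replicate 5 had a mean correlation of 0.923 with its group, against 0.954 to 0.982 for the other arrays. Its Gapdh 3′ control read 8977, against 13484 to 17529 elsewhere. It was the lowest of its group's 5 arrays for 14 of the 26 members and the highest for 5. DN-CLIM P6 replicate 3 had a low actin 3′ control, 15245 against 28812 to 45712 on the other arrays of growing skin. Without replicate 5 the counts of members called in DN-CLIM went from 6 to 8 between P6 and P14 and stayed at 19 between P6 and P23, and without both arrays they were 7 and 18.

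Members passed the test between ages, and none passed it between genotypes. In wild-type skin 11 of the 26 rose from P14 to P23 and 1, Hk1, fell (adjusted p under 0.05 over 6211 probe sets, limma), against a background of 27.9% of 4900 genes higher and 27.2% lower. The risers included hexokinase 2, triosephosphate isomerase, phosphoglycerate kinase, pyruvate kinase and both lactate dehydrogenases. They also took in the 3 pyruvate dehydrogenase subunits among the members, and Idh3g and Suclg1 of the TCA cycle. The phosphofructokinases (Pfkl, Pfkp), the aldolases (Aldoa, Aldoc) and Pgam1 did not pass. In DN-CLIM skin, whose arrays are separate, 13 rose and 3 fell (background 27.7% and 27.1%), and all 12 wild-type calls were among these 16, in the same direction. The median member changed by 0.31 in wild type and 0.44 in DN-CLIM on the log2 scale, while the median of all genes was at 0.00 in both. From P6 to P14 movement was smaller, with 3 rises and 3 falls in each genotype (background 9.67% and 12.1% in wild type, 11.7% and 15.7% in DN-CLIM). Between P6 and P23, 12 rose and 2 fell in wild type (26% and 28.9% of all genes), and 16 rose and 3 fell in DN-CLIM (26.8% and 28.7%).

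**Figure D1:**
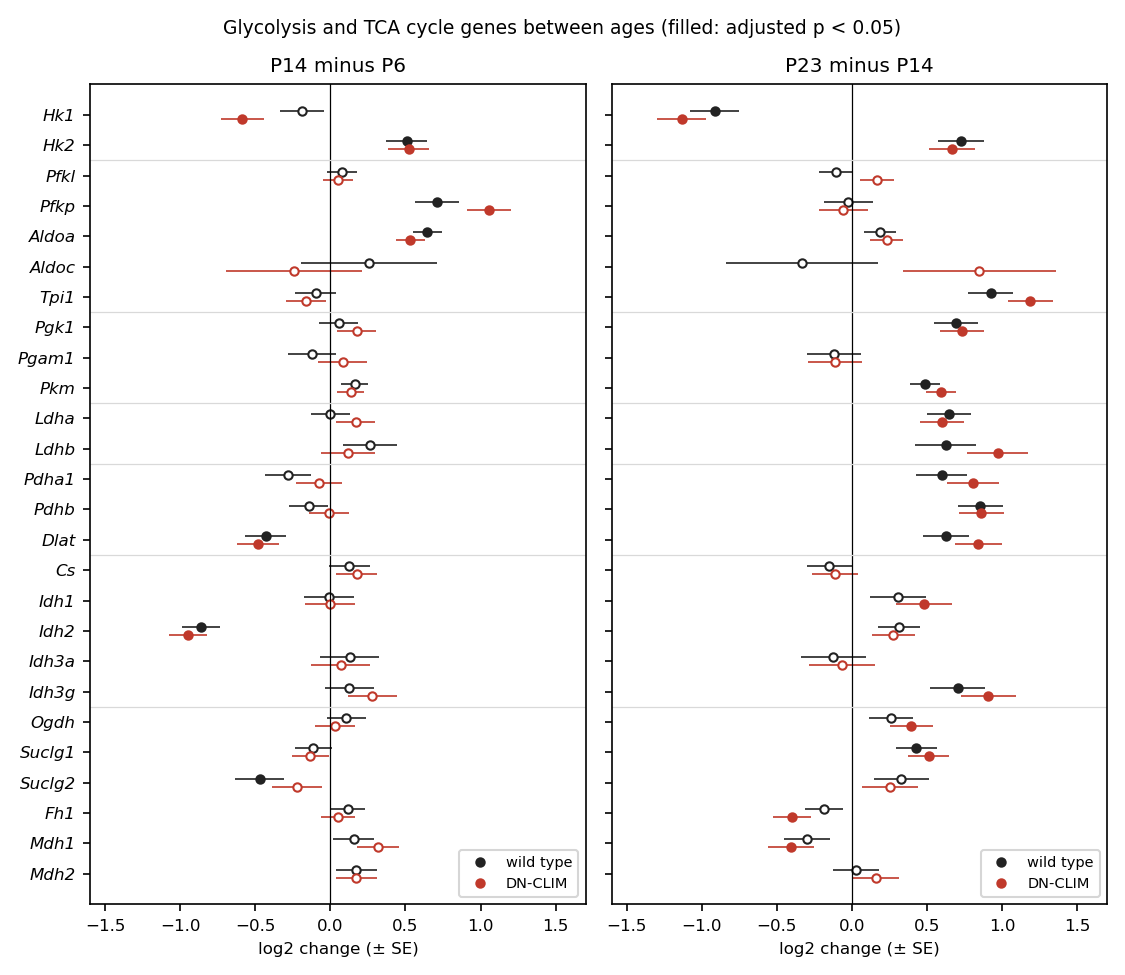
log2 change of the 26 tested members (rows, grouped by step of the pathway) from P6 to P14 (left) and from P14 to P23 (right), wild type in black and DN-CLIM in red, bars ± SE from limma, filled points with adjusted p under 0.05. From P14 to P23 most filled points lie to the right of 0, Hk1 lies far to the left, and the genotypes lie side by side.

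The 250 bases before the start of 5 members are shown because these genes moved apart after P14 in both genotypes, where 4 rose and Hk1 fell. Tpi1 had the largest rise of the members' brightest probe sets, and the genes shown were chosen with their matches known. They come from RefSeq promoters on GRCm38.p6, read on the gene's strand, at chr10:62340422-62340671 (minus strand), chr6:124814159-124814408 (minus), chr6:82774455-82774704 (minus), chrX:106186850-106187099 (plus) and chr7:46845554-46845803 (plus). The table has 2 windows each for Hk1 and Ldha, and the one richer in G and C is printed. Capitals mark ACGTG and GCGTG on either strand, the core letters of hypoxia response elements. ACGTG also lies inside the E-box CACGTG, on both strands of it.
Hk1: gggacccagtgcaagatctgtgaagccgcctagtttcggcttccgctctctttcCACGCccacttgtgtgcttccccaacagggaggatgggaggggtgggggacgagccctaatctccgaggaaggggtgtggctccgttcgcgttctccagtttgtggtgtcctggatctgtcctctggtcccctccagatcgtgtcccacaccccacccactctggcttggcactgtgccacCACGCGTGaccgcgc
Tpi1: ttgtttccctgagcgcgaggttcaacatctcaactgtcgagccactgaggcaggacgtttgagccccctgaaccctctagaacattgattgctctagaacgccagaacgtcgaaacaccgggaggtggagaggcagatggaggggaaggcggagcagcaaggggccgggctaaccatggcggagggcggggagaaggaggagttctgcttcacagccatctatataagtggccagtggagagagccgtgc
Hk2: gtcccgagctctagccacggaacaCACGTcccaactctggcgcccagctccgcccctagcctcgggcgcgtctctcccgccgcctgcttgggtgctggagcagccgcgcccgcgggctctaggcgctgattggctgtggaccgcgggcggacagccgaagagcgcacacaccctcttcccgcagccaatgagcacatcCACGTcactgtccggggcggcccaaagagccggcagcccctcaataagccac
Pgk1: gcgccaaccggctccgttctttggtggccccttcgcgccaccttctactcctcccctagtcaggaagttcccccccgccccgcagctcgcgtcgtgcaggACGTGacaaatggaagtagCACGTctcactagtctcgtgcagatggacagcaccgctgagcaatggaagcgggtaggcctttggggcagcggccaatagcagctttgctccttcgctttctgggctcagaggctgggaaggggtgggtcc
Ldha: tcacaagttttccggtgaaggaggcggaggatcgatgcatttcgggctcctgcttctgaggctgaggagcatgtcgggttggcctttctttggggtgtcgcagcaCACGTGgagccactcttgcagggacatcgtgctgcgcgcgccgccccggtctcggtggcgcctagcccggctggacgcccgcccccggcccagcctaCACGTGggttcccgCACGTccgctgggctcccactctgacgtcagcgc

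The Ldha window held 5 matches of ACGTG, 4 of them in its 2 CACGTG boxes, and Hk2 and Pgk1 held 2 each. The Hk1 window held none and had 3 matches of GCGTG, and the Tpi1 window held neither. Of the 14 members that were higher at P23 than at P14 or at P6 in both genotypes, 8 had ACGTG in a window (57.1%). The same letters stood in a window of 2 of the 11 other tested members in the table, and of 26.5% of the 3973 tested genes in it. GCGTG was in a window of 8 of the 14, 8 of the 11, and 52.1% of tested genes. Over single windows the shares of ACGTG and GCGTG were 37.8% and 55.6% of 45 member windows, 22.6% and 45.7% of 5124 windows of tested genes and 16.6% and 28.2% of 32851 windows of all genes. These counts describe letters, were made after the changes were known and have no test. Median G and C content was 61.6% in the members' windows and 60% in those of tested genes.

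The 2 tested hexokinases, which trap glucose in the cell as glucose 6-phosphate, moved in opposite directions. Hk1 is the widely expressed form. In wild-type skin its signals were 10640, 9474, 10501, 15607 and 12697 at P6, then 10059, 10028 and 10412 at P14, then 5994, 4869 and 5377 at P23. Every telogen array lay below every array of growing skin. Hk1 fell 1.88-fold from P14 to P23 (log2 change -0.91, SE 0.16, adjusted p = 6.12e-05, limma). In DN-CLIM skin the signals were 13032, 11928, 14373, 14240 and 18166, then 11009, 8389 and 9161, then 4152, 3851 and 5000. There Hk1 also fell from P6 to P14 (log2 change -0.59, SE 0.15, adjusted p = 0.00494) and again to P23 (log2 change -1.13, SE 0.16, adjusted p = 4.50e-06), and over the whole span it fell 3.30-fold against 2.15-fold in wild type. The difference between these falls was -0.62 (SE 0.21) and did not pass the test (adjusted p = 0.793).

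Hk2 is the inducible hexokinase of muscle, fat and fast-growing tissue. Its wild-type signals were 450, 611, 656, 490 and 464 at P6, then 810, 735 and 711 at P14, then 1343, 1373 and 1042 at P23. The 3 ages did not overlap. Hk2 rose 1.42-fold to P14 (adjusted p = 0.0112) and 1.66-fold more to P23 (log2 change 0.73, SE 0.15, adjusted p = 0.000400). The first of these was lost without WT P14 replicate 1 (adjusted p = 0.0620). In DN-CLIM skin the arrays read 512, 384, 566, 501 and 533, then 684, 737 and 711, then 1181, 1104 and 1096, again without overlap, and rose 1.44-fold and 1.59-fold (adjusted p = 0.00795 and 0.000939). A dim Hk2 probe set (signals of 2 to 51) was not tested. Slc2a1, the basal glucose transporter GLUT1, was also too dim. Its signals spanned 50 to 296 on the arrays of growing skin, 202, 257 and 400 in wild type at P23 and 440, 406 and 436 in DN-CLIM at P23.

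**Figure D2:**
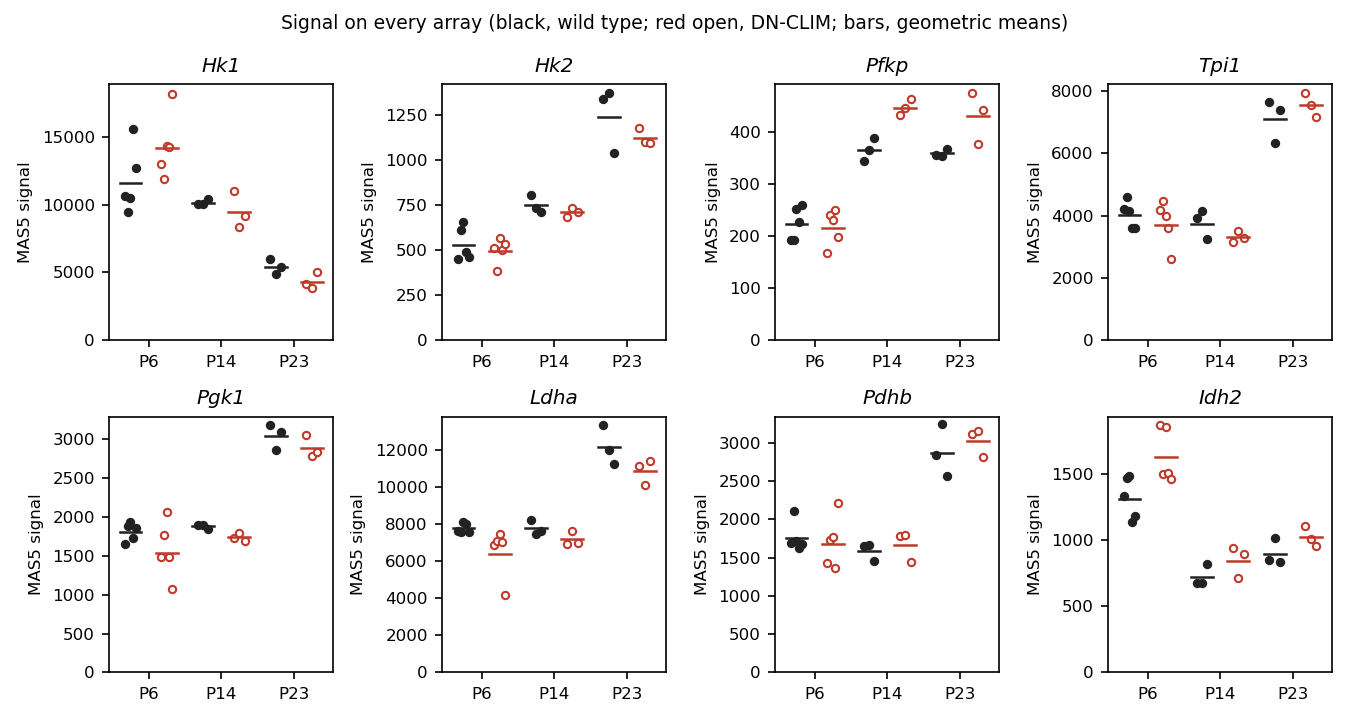
MAS5 signal (linear axis from 0) of 8 members on each of the 22 arrays by age, wild type in filled black and DN-CLIM in open red, bars at the geometric mean of a group. Hk1 and Idh2 are highest at P6, Pfkp steps up at P14, Hk2 rises at each age, and Tpi1, Pgk1, Ldha and Pdhb step up at P23.

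In upper glycolysis, which commits and splits the sugar, the members fell into 3 patterns. Pfkp, the platelet form of phosphofructokinase, and Aldoa, aldolase A, rose by P14, and the changes of their brightest probe sets after P14 did not pass. Pfkp signals in wild type were 193, 193, 251, 226 and 259 at P6, then 343, 365 and 387 at P14, then 355, 353 and 367 at P23. The P14 and P23 arrays lay above all P6 arrays, a rise of 1.64-fold by P14 (log2 change 0.71, SE 0.15, adjusted p = 0.00124), and the change after P14 was -0.03 (SE 0.16). DN-CLIM arrays read 167, 241, 230, 250 and 198, then 432, 445 and 462, then 475, 377 and 441, a 2.08-fold rise by P14 (adjusted p = 1.74e-05). A further Pfkp probe set rose by 0.58 and 0.59 over the same interval in wild type and DN-CLIM. After P14 it changed by -0.11 in wild type and rose by 0.46 in DN-CLIM (adjusted p = 0.0358 for the latter).

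Aldoa signals in wild type were 8466, 8235, 8412, 8720 and 8074 at P6, then 12729, 13859 and 12783 at P14, then 17763, 13636 and 13782 at P23. The P6 arrays formed a tight group below all others. Aldoa rose 1.57-fold by P14 (log2 change 0.65, SE 0.10, adjusted p = 4.30e-05), and its further change to P23 (0.19, SE 0.11) did not pass. In DN-CLIM skin the signals were 9116, 8788, 8133, 8010 and 6876, then 13108, 10845 and 11500, then 14307, 13311 and 13880, with a 1.45-fold rise by P14 (adjusted p = 0.000378). The other tested Aldoa probe set rose by 0.77 in wild type and 0.76 in DN-CLIM from P6 to P14. The names of both carry the suffix that marks probes shared within a family of similar sequences.

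Tpi1, triosephosphate isomerase, which interconverts the 2 products of aldolase, changed later and more. Wild-type signals were 4216, 4593, 4134, 3592 and 3610 at P6, then 3919, 4133 and 3241 at P14, then 7660, 6341 and 7402 at P23. The growing ages overlapped and the telogen arrays stood clear above them. From P14 to P23 Tpi1 rose 1.90-fold (log2 change 0.93, SE 0.15, adjusted p = 2.11e-05), the largest rise of that interval among the members' brightest probe sets. DN-CLIM arrays read 4178, 4471, 3985, 3612 and 2608, then 3165, 3515 and 3274, then 7942, 7561 and 7177, a 2.28-fold rise (adjusted p = 8.29e-07).

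The other pair in upper glycolysis did not pass in any comparison of ages. Pfkl, the liver form of phosphofructokinase, stayed between 814 and 1259 on all 22 arrays. Aldoc, the aldolase of brain, was the noisiest member, with an SD within groups of 0.70 on the log2 scale, and read 56 on DN-CLIM P6 replicate 5 and 52 on DN-CLIM P14 replicate 1, against 162 to 355 elsewhere.

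In lower glycolysis, which yields ATP and pyruvate, transcript signals rose at telogen for 2 of the 3 tested steps. Pgk1, phosphoglycerate kinase, had wild-type signals of 1653, 1876, 1935, 1724 and 1853 at P6, then 1898, 1892 and 1837 at P14, then 3180, 2854 and 3095 at P23. The 8 arrays of growing skin spanned 1653 to 1935 and the telogen arrays began at 2854, a 1.62-fold rise after P14 (log2 change 0.70, SE 0.15, adjusted p = 0.000381). In DN-CLIM skin the arrays read 1480, 1769, 2058, 1481 and 1077, then 1731, 1786 and 1693, then 3057, 2786 and 2826, a 1.66-fold rise after P14 (adjusted p = 0.000232).

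Pkm encodes pyruvate kinase of muscle and of most other tissues, which makes pyruvate. Wild-type signals of its brightest probe set were 4611, 4631, 4193, 4113 and 3965 at P6, then 4702, 5184 and 4552 at P14, then 7388, 5908 and 7011 at P23. DN-CLIM signals were 4139, 4510, 4858, 4134 and 3863, then 4927, 4800 and 4426, then 7328, 6936 and 7067. Telogen lay above both growing ages in each genotype, by 1.40-fold over P14 in wild type (log2 change 0.49, SE 0.10, adjusted p = 0.000317) and 1.51-fold in DN-CLIM (adjusted p = 3.79e-05). A second Pkm probe set rose too, by more. It read 1150, 1244 and 1654 at P14 and 3771, 4046 and 3975 at P23 in wild type, a log2 change of 1.56 (SE 0.23), and rose by 2.37 in DN-CLIM. The names of both Pkm probe sets carry suffixes that mark probes shared with similar sequences.

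Gapdh, which oxidises glyceraldehyde 3-phosphate, was read through its 3 sense-strand array controls, which were bright. The 3 antisense controls read 10 to 363 and were set aside. The middle control read 13647, 12051, 13153, 12880 and 13557 at P6, then 13216, 14787 and 13037 at P14, then 19351, 17021 and 16129 at P23 in wild type. In DN-CLIM skin it read 14631, 13913, 14247, 13644 and 6335, then 13805, 13914 and 12590, then 17298, 17680 and 16836. Apart from the low array at P6, the telogen arrays were the highest of each genotype on this middle control. On the 3′ control telogen overlapped growing skin in wild type (lowest 14939 at P23, highest 16072 at P14). It also did in DN-CLIM (lowest 15202 at P23, highest 15792 at P6). The 5′ control overlapped in wild type (lowest 16990 at P23, highest 17044 at P14). Added to the fit, the 3′, 5′ and middle controls changed from P6 to P23 by 0.16, 0.29 and 0.42 in wild type (adjusted p = 0.324, 0.198 and 0.0521). Without DN-CLIM P6 replicate 5 the same changes had adjusted p = 0.0452, 0.00923 and 2.97e-05. In DN-CLIM the same controls changed by 0.17, 0.34 and 0.52 (adjusted p = 0.298, 0.124 and 0.0168), so the middle control alone passed. Without that array they changed by 0.01, 0.11 and 0.29 (adjusted p = 0.926, 0.315 and 0.00187). Pgam1, the phosphoglycerate mutase of non-muscle tissue, passed in no comparison and spanned 1228 to 2741.

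Both lactate dehydrogenase genes, whose products interconvert pyruvate and lactate, were highest at telogen. Ldha encodes the subunit that favours lactate. Its wild-type signals were 7638, 7572, 8124, 7978 and 7574 at P6, then 8219, 7456 and 7641 at P14, then 13314, 11989 and 11229 at P23. The change from P6 to P14 did not pass (log2 -0.00, SE 0.13), and every telogen array was higher, 1.56-fold over P14 (log2 change 0.65, SE 0.15, adjusted p = 0.000771). The DN-CLIM signals were 6864, 7100, 7436, 7011 and 4149, then 6936, 7608 and 6973, then 11107, 10094 and 11381, with a 1.51-fold rise after P14 (adjusted p = 0.00154).

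Ldhb, the subunit of heart and other oxidative tissue, was dimmer. Its wild-type signals were 303, 167, 172, 261 and 255 at P6, then 284, 235 and 297 at P14, then 373, 424 and 462 at P23. All 3 telogen arrays lay above the 8 others. From P14 to P23 Ldhb rose 1.54-fold (adjusted p = 0.0123), a call lost without WT P14 replicate 2 (0.0611) or WT P23 replicate 3 (0.0530), and from P6 to P23 it rose 1.85-fold (adjusted p = 0.000268). In DN-CLIM skin the signals were 237, 210, 235, 196 and 213, then 252, 243 and 214, then 511, 502 and 385, a 1.96-fold rise after P14 (adjusted p = 0.000352).

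For the pyruvate dehydrogenase complex, the gate from pyruvate to acetyl-CoA, transcript signals of all 3 subunits among the members rose after P14 in both genotypes. Pdhb, the beta subunit of its first enzyme, read 1692, 2107, 1716, 1632 and 1674 at P6, then 1653, 1663 and 1455 at P14, then 2847, 3248 and 2566 at P23 in wild type. In DN-CLIM it read 1432, 1728, 1774, 1361 and 2213, then 1789, 1800 and 1437, then 3121, 3156 and 2821. No telogen array overlapped the growing ages, and the rise after P14 was 1.81-fold in wild type (log2 change 0.86, SE 0.15, adjusted p = 4.68e-05) and 1.82-fold in DN-CLIM (adjusted p = 4.42e-05).

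Pdha1, the alpha subunit, read 2546, 1725 and 2583 at P14 and 3231, 3084 and 3946 at P23 in wild type, a 1.51-fold rise (adjusted p = 0.00564, and 0.0586 without WT P14 replicate 2). In DN-CLIM it went from 2175, 2308 and 2255 to 4069, 3825 and 3882, a 1.75-fold rise (adjusted p = 0.000450). Its P6 arrays (1917 to 3122 over both genotypes) overlapped the P14 arrays, and the highest of them passed the lowest telogen array.

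Dlat, the acetyltransferase at the core of the complex, was lowest at P14 on its tested probe set. Its wild-type signals were 340, 426, 413, 366 and 426 at P6, then 289, 274 and 310 at P14, then 420, 468 and 461 at P23. The P14 arrays lay below all others. The fall to P14 passed in wild type (adjusted p = 0.0307), and was lost without any one of WT P6 replicates 2, 3 and 5 and WT P14 replicates 1, 2 and 3 (adjusted p = 0.0543 to 0.115). The return to P23 was 1.54-fold (log2 change 0.63, SE 0.16, adjusted p = 0.00179). DN-CLIM arrays read 360, 306, 370, 453 and 381, then 304, 211 and 293, then 451, 485 and 494, a fall (adjusted p = 0.0138, and 0.138 without DN-CLIM P14 replicate 2) and a 1.79-fold rise (adjusted p = 0.000100). A dim Dlat probe set, not tested, went the other way at P14. It read 37, 93, 115, 166 and 106 at P6, then 167, 96 and 176 at P14, then 183, 185 and 109 at P23 in wild type. In DN-CLIM it read 85, 24, 46, 73 and 43, then 242, 283 and 182, then 136, 143 and 149.

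In the first arm of the TCA cycle, from citrate to oxoglutarate, 2 mitochondrial isocitrate dehydrogenases moved in opposite directions over the whole span. Idh2, the NADP-dependent mitochondrial form, had wild-type signals of 1338, 1469, 1483, 1138 and 1183 at P6, then 676, 677 and 823 at P14, then 854, 1016 and 835 at P23. All P6 arrays lay above all later ones. It fell 1.82-fold by P14 (log2 change -0.86, SE 0.13, adjusted p = 3.01e-05) and was still 1.46-fold lower at P23 (adjusted p = 0.000855). In DN-CLIM skin the arrays read 1875, 1500, 1858, 1509 and 1461, then 938, 713 and 896, then 1105, 1010 and 955, a 1.93-fold fall by P14 (adjusted p = 9.33e-06).

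Idh3g, a regulatory subunit of the NAD-dependent enzyme of the cycle, had wild-type signals of 1122, 937, 1052, 964 and 1105 at P6, then 1008, 1254 and 1135 at P14, then 1836, 1798 and 1880 at P23. In DN-CLIM they were 998, 1074, 1034, 665 and 539, then 1028, 949 and 1052, then 1863, 1951 and 1866. All 6 telogen arrays lay within 1798 to 1951 and above every other array. Idh3g rose 1.63-fold after P14 in wild type (log2 change 0.70, SE 0.18, adjusted p = 0.00263) and 1.88-fold in DN-CLIM (adjusted p = 0.000255). The catalytic subunit Idh3a had log2 changes after P14 of -0.12 (SE 0.22) and -0.07 (SE 0.22), and passed in no comparison. Idh3b (signals of 16 to 146) and Aco1, the cytosolic aconitase (24 to 129), were too dim to test.

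Cs, citrate synthase, which starts the cycle, passed in no comparison. Its wild-type signals were 4142, 3986, 4238, 4542 and 4278 at P6, then 4492, 4873 and 4494 at P14, then 4332, 3978 and 4179 at P23. In DN-CLIM they were 3994, 4007, 4734, 4086 and 2374, then 4299, 4219 and 4163, then 3822, 3891 and 4001. Apart from 2374 on DN-CLIM P6 replicate 5, all arrays lay within 3822 and 4873. Its log2 change from P6 to P23 was -0.03 (SE 0.14) in wild type and 0.06 (SE 0.14) in DN-CLIM.

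Idh1, the cytosolic NADP-dependent form, read 1213, 1183, 1068, 1301 and 1157 at P6, then 1262, 1136 and 1131 at P14, then 1303, 1537 and 1531 at P23 in wild type. Telogen arrays were highest without passing (log2 change after P14 0.31, SE 0.19, adjusted p = 0.169). In DN-CLIM the arrays read 971, 1054, 1082, 1113 and 574, then 1185, 772 and 885, then 1356, 1283 and 1260, and the rise after P14 passed (log2 change 0.48, SE 0.19, adjusted p = 0.0332). It was lost without any one of DN-CLIM P14 replicates 2 and 3 and DN-CLIM P23 replicates 1, 2 and 3 (adjusted p = 0.0567 to 0.165).

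In the second arm, from oxoglutarate back to oxaloacetate, changes were small and in both directions. Suclg1, the alpha subunit of succinate-CoA ligase, read 1012, 1125 and 1408 at P14 and 1618, 1592 and 1523 at P23 in wild type, a 1.35-fold rise (adjusted p = 0.0123) that was lost without WT P14 replicate 1 (adjusted p = 0.0804). In DN-CLIM it rose 1.42-fold (adjusted p = 0.00380), from 1353, 877 and 1213 to 1579, 1687 and 1562. Suclg2, the beta subunit of its GTP-forming version, fell from 1243, 1054, 1566, 1407 and 1037 at P6 to 723, 1189 and 842 at P14 in wild type (log2 change -0.47, adjusted p = 0.0467). That fall did not hold without any one of WT P6 replicates 1, 3 and 4 and WT P14 replicates 1 and 3 (adjusted p = 0.0708 to 0.281), and the 2 ages overlap. Hk2, Dlat and Suclg2 together account for the wild-type count between P6 and P14 dropping from 6 to 3 without WT P14 replicate 1.

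The remaining enzymes of this arm passed mostly in DN-CLIM skin. Ogdh, the first enzyme of the oxoglutarate dehydrogenase complex, was higher at P23 than at P6 in wild type (log2 change 0.37, adjusted p = 0.0214, and 0.0854 without WT P23 replicate 2) and in DN-CLIM (0.43, adjusted p = 0.00823). Fh1, fumarate hydratase, read 1671, 1629, 1618, 1586 and 1730 at P6, then 1821, 1512 and 1798 at P14, then 1376, 1388 and 1129 at P23 in DN-CLIM. It was lower at P23 than at P6 there (log2 change -0.35, adjusted p = 0.0129, and 0.107 without DN-CLIM P23 replicate 3), with -0.07 (SE 0.11) in wild type, whose arrays read 1439, 1551, 1256, 1771 and 1741, then 1553, 1792 and 1674, then 1637, 1515 and 1275. Mdh2, the mitochondrial malate dehydrogenase, was higher at P23 than at P6 in DN-CLIM (log2 change 0.33, adjusted p = 0.0438), a call lost without any one of DN-CLIM P6 replicates 1 to 4 and DN-CLIM P23 replicates 1 to 3 (adjusted p = 0.0581 to 0.117). Mdh1, the cytosolic form, had a log2 difference after P14 of -0.30 (SE 0.16) in wild type, which did not pass. In DN-CLIM Mdh1 went from 372, 531 and 500 at P14 to 352, 388 and 311 at P23 and passed as lower (log2 change -0.41, adjusted p = 0.0316), and that call was lost without any one of DN-CLIM P14 replicates 2 and 3 and DN-CLIM P23 replicates 1 and 3 (adjusted p = 0.0614 to 0.146). A call in one genotype and not in the other is no difference between them, and 0 of the 26 members passed the test of that difference between P14 and P23.

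The members did not move as one block. Over the 22 arrays the 325 pairs of members had a median Pearson correlation of 0.18, from -0.91 (Hk1 with Pkm) to 0.96 (Ldha with Pgk1). Tpi1, Pkm and Idh3g were also most like Pgk1 (0.92, 0.92 and 0.95). Once each group's mean was subtracted the median over pairs was 0.016, from -0.79 to 0.90. Of the 26 members, 16 had their highest group mean at P23, 7 at P14 and 3 at P6. The arrays share scaling and dissection, and these correlations are a description.

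Related genes from lists of isoforms, regulators, cycle enzymes, gluconeogenesis, pentose phosphate, glycogen and glycerol phosphate genes were read beside the members. Of 72 such genes 39 were tested, and from P14 to P23 in wild type 22 rose and 7 fell (21 and 7 in DN-CLIM). The background over all genes was 27.9% higher and 27.2% lower in wild type, and 27.7% and 27.1% in DN-CLIM. The largest rises were in muscle forms. Pygm, muscle glycogen phosphorylase, went from 576, 646 and 446 to 6017, 4347 and 5740 (log2 change 3.27, SE 0.24, adjusted p = 1.74e-10). Pgam2, the muscle counterpart of Pgam1, went from 380, 434 and 375 to 4343, 2851 and 4061 (log2 change 3.22). Pfkm and Eno3, muscle phosphofructokinase and enolase, rose by 2.27 and 2.23. Pdk4, a kinase that shuts pyruvate dehydrogenase down, read 277, 360 and 381 at P14 and 2841, 503 and 1890 at P23 and rose by 2.05 (adjusted p = 9.02e-05).

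Among the falls, 1 related gene went from bright to nearly dark. Fbp1, fructose-1,6-bisphosphatase, which runs the phosphofructokinase step backwards, had wild-type signals of 3343, 4311, 2624, 2811 and 2973 at P6, then 3577, 4503 and 4486 at P14, then 11, 11 and 15 at P23. In DN-CLIM skin they were 2505, 3367, 2592, 3047 and 5702, then 3063, 2655 and 3171, then 18, 7 and 12. The log2 change after P14 was -8.45 (SE 0.28, adjusted p = 6.65e-17) in wild type and -7.99 in DN-CLIM, and with telogen signals of 7 to 18 the size of the fall is uncertain. Pgm2 (phosphoglucomutase 2) and Bpgm (bisphosphoglycerate mutase) also fell, by 2.06 and 1.22 on the log2 scale in wild type, as did 2 of the 5 tested pentose phosphate genes, Taldo1 (log2 change -0.64) and Pgls (-0.62). Of the 12 other tested genes of the cycle and its feeders 9 rose and 0 fell, among them Sucla2, the beta subunit of the ATP-forming succinate-CoA ligase (0.64), Dld, the subunit shared by the pyruvate and oxoglutarate complexes (1.25), and Glud1, glutamate dehydrogenase (1.25). Between P6 and P14 in wild type 6 of the 39 rose and 7 fell (background 9.67% and 12.1% of all genes). Between P6 and P23 19 rose and 6 fell (26% and 28.9%).

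The cell make-up of the skin, as markers show it, changed in the same interval. Of 13 tested skeletal muscle markers 12 were higher at P23 than at P14 in wild type and 1 was lower, and the list's summed signal (15 genes, Acta1 the brightest) ran from 36196 to 42562 at P6, 44220 to 50912 at P14 and 119250 to 146390 at P23. In DN-CLIM the sums were 39913 to 50166, 35432 to 52312 and 115870 to 126980. All 10 tested hair shaft and matrix markers were lower at P23, with sums of 196090 to 221880 at P14 and 2840 to 3196 at P23. Adipocyte markers rose in 4 of 6 (sums of 5586 to 6445 at P14 and 14838 to 18087 at P23), macrophage markers in 7 of 7 (3108 to 3671 and 9750 to 10653), and markers of dividing cells fell in 8 of 11 (9573 to 9990 and 4645 to 5708). The 3 tested basal epidermal markers, Col17a1, Itgb4 and Itga6, were higher at P23 (sums over 6 genes of 3544 to 3879 and 8686 to 9715), while Krt5, Krt14 and Krt15 were too dim to test. The marker counts given here are for wild type, against a background of 27.9% of all genes higher and 27.2% lower. Of the other lists, markers of fibroblasts were higher in 4 of 5, of endothelium in 2 of 3 and of sebaceous gland in 1 of 2. Those of the inner root sheath were lower in 4 of 5, of melanocytes in 3 of 3 and of erythroid cells in 2 of 3. Suprabasal epidermal markers were higher in 5 of 8 and lower in 2. The suprabasal sum went the other way in wild type, from 86344 to 89950 at P14 down to 63891 to 69141 at P23. No marker was at 0 on any array. The part of these shifts in the members' changes was not tested.

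**Figure D3:**
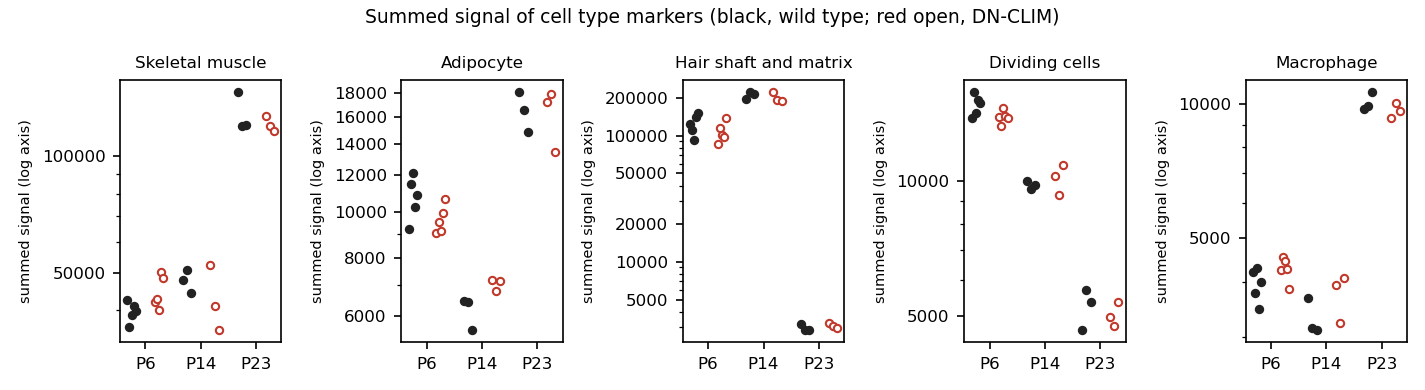
Summed MAS5 signal, on a log axis, of 5 lists of cell type markers on each of the 22 arrays by age, wild type in filled black and DN-CLIM in open red. Muscle, adipocyte and macrophage sums are highest at P23, hair shaft and matrix sums fall from 196090 to 221880 at P14 to 2840 to 3196 at P23 in wild type, and the sums of dividing cells fall at each age.

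Between the genotypes no member passed the test. By limma 0 of 26 differed between DN-CLIM and wild type at P6 (background 0.0204% of 4900 genes), at P14 (0.0612%), at P23 (0.184%) or averaged over the ages (0.204%), and 0 in the 3 tests of whether the genotype difference changed with age (0.0204%, 0% and 0.0204%). At an unadjusted p under 0.05 there were 5, 1, 1 and 3 of the 26 members in the first 4 comparisons, and 399, 310, 233 and 352 of the 4900 genes. Over the 26 members the median log2 difference was -0.06 (P6), -0.08 (P14) and 0.05 (P23), with wild type subtracted from DN-CLIM.

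**Figure D4:**
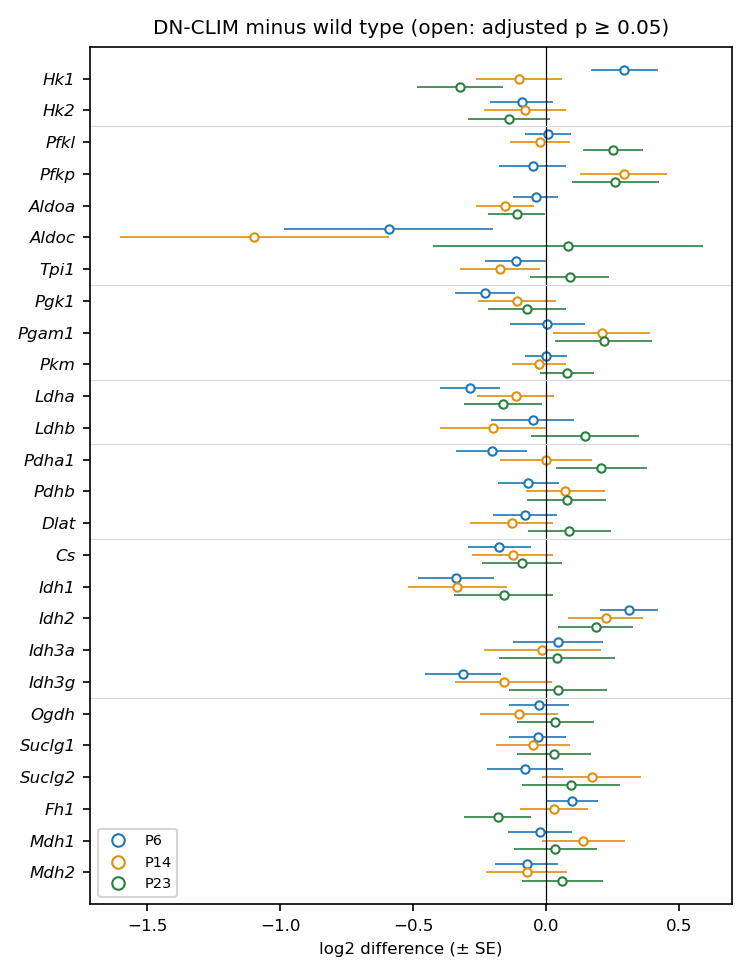
log2 difference, DN-CLIM minus wild type, of the 26 tested members at P6 (blue), P14 (orange) and P23 (green), bars ± SE from limma. All points are open, since 0 members passed at adjusted p under 0.05, and Aldoc has the widest bars.

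Idh2 had the smallest p of the members at P6 and over the average of the ages, Aldoc at P14 and Pfkl at P23. Idh2, whose signals at P6 are given above, had a mean log2 signal of 10.67 ± 0.18 (SD, n = 5) in DN-CLIM and 10.36 ± 0.18 (SD, n = 5) in wild type, a log2 difference of 0.31 (SE 0.11, adjusted p = 0.509). The later ages gave 0.22 (P14) and 0.19 (P23), and averaged over the ages it was 0.24 (SE 0.08, adjusted p = 0.391). The arrays of the genotypes overlapped at each age. Without DN-CLIM P6 replicate 5 the Idh2 difference was 0.35 at P6 (SE 0.11, adjusted p = 0.327, limma). Averaged over the ages it was then 0.25 (SE 0.07, adjusted p = 0.203, limma). Idh1 lay the other way, at -0.34, -0.33 and -0.16 (averaged -0.28, SE 0.10, adjusted p = 0.499). Its P6 difference moved to -0.17 (SE 0.10) without DN-CLIM P6 replicate 5. The averaged difference of Idh1 without that array was -0.22 (SE 0.07, adjusted p = 0.222, limma).

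Ldha was the 1 member whose P6 groups did not overlap as lower in DN-CLIM, against 0.49% of all genes, and 0 members did not overlap as higher (0.429%). Its difference was -0.29 (SE 0.11, adjusted p = 0.560), and -0.13 (SE 0.06) without DN-CLIM P6 replicate 5. Averaged over the ages without that array, the Ldha difference was -0.14 (SE 0.04, adjusted p = 0.222, limma). Groups also did not overlap at P14 for Pgam1 and Pfkp (higher, background 6.98%) and for Cs and Pgk1 (lower, 8.41%), and at P23 for Pfkl and Pfkp (higher, 8%), where 0 members were lower (7.27%). Hk1 changed side, from 0.29 at P6 to -0.10 at P14 and -0.32 at P23. Aldoc had the largest differences, -0.59 at P6 and -1.10 at P14, with SEs of 0.39 and 0.51, in the groups that hold its low arrays. Without DN-CLIM P6 replicate 5 the counts stayed at 0 called, with 3, 2, 3 and 4 members at an unadjusted p under 0.05, against 442, 427, 326 and 484 of the 4900 genes. Of the 39 related genes 0 passed between the genotypes at P6, P14 or P23 (background 0.0204%, 0.0612% and 0.184%). There were 0, 4 and 2 at an unadjusted p under 0.05. The counts over all genes with every array in the fit are given above.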

How the data were processed

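Transcripts of mouse back skin were measured on 22 single-colour oligonucleotide arrays. The authors deposited 1 intensity per probe set and array, a MAS5 signal on a linear scale per the submitters' processing notes, of a version that is not given in the labels. The 2% trimmed mean was 500.2 to 500.3 on every array, so a rise or fall is relative to the array's other probe sets. The number of arrays limits the precision.

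Log2 signals were used without further normalization (array medians 7.56 to 7.80). Array controls (66) were left out, and the 6211 probe sets with a mean at or above the median of means were tested with limma 3.58.1 in R 4.3.3. One mean was fitted per group, with eBayes and a variance trend, and Benjamini-Hochberg adjustment at 0.05. The annotation, which can be old, pairs 10855 probe sets with 1 gene, 396 with several and 1237 with none. Each of 4900 genes was counted through its brightest tested probe set. No 2 arrays held identical values. The fit was also run on simulated data with independent noise. These data held no effect shared by the probe sets of an array, so the run does not cover an array that stands apart. Python 3.11.15 drew the figures.

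Every member may be named. Named with signals on each array are the called members with the largest changes, up to 6 per direction, and Gapdh, Ldha, Ldhb, Cs and Idh1. Suclg1, Slc2a1, Pkm and related genes beyond the 6 largest of a comparison (Pdk4, Bpgm, Taldo1, Pgls, Sucla2, Dld, Glud1) were chosen after their values were seen. The members and lists were chosen with earlier results of these data known. Alternatives covered the filter, quantile normalization, an offset of 32, array weights, no trend, fewer arrays, the replicate block, the P6 arrays numbered 4 and 5, other probe sets per gene and each array left out. The Gapdh controls and the fit without DN-CLIM P6 replicates 3 and 5 were added after seeing the data.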

Additional observations from a re-analysis of the deposited data

Results flagged for a closer look

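Single arrays far from the rest of their group were looked for in 58 groups of 5 arrays, all at P6. The gap between the outermost array and its neighbour, divided by the range of the group, passed the limit of 0.710 in 9 of them. For a single group chance gives about 1 in 20. The groups share the same arrays and are not independent, so the 9 cannot be weighed against that share. In 7 of the 9 the array was DN-CLIM P6 replicate 5, low each time. The ratio there was 0.863 for Ldha, 0.754 for Cs, 0.793 for Idh1 and 0.808 for Aldoc. For the 3′, 5′ and middle Gapdh controls it was 0.905, 0.897 and 0.917. That array also had the highest ratio of the 3′ to the 5′ Gapdh control, 1.21 against 0.863 to 1.16 on the others. In wild type at P6, Pgam1 was highest on replicate 5 (0.813) and Pdhb on replicate 2 (0.803).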

How the results depend on the processing

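The counts of members called between the genotypes stayed at 0 under each alternative. Between ages, leaving out 1 array gave 3 to 5 called members for P14 minus P6 in WT (3 without WT P14 replicate 1), 11 to 13 for P23 minus P14 and 12 to 14 for P23 minus P6. In DN-CLIM the ranges were 5 to 8, 12 to 17 and 16 to 19. Of 73 calls, 53 of 528 fits that left out 1 array and 25 of 719 other fits lost the call, and 0 changed sign. The calls lost most often were Suclg1, Suclg2, Dlat, Mdh2, Mdh1, Idh1 and Ogdh. With the replicate number as a block, Dlat for P14 minus P6 in WT (adjusted p = 0.0733) and Suclg1 for P23 minus P6 in WT (0.0976) were lost, and the counts were 6, 13 and 13 in WT and 7, 17 and 19 in DN-CLIM. Without the P6 arrays numbered 4 and 5 the counts against P6 were 5 and 14 in WT and 7 and 19 in DN-CLIM. Lost there were Hk2 (adjusted p = 0.0558) and Suclg2 (0.0587) for P14 minus P6 and Suclg1 for P23 minus P6 (0.114) in WT, and Dlat for P14 minus P6 in DN-CLIM (0.0663). Same-numbered arrays of the genotypes correlated at -0.047 to 0.249 in their deviations, so the numbers are not taken as pairs. The median likeness among members after subtracting group means ranged from -0.0093 to 0.034 over the fits that left out 1 array, and was -0.0058 without DN-CLIM P6 replicate 3 and -0.0093 without replicate 5. The causes were not tested. Dim probe sets and 3 arrays per group limit what small changes could be called.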
